A study of Mus musculus with 23 samples.

Results

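The Schlafen family was examined in bulk RNA-seq libraries of mouse brain microglia through its 7 members Slfn1, Slfn2, Slfn3, Slfn4, Slfn5, Slfn8 and Slfn9, taken by gene symbol from the 53090 genes in each library's table. The genes were selected on their symbols, and the family itself was chosen by the Slfn4 expected counts, which had stood out between old and young libraries in an earlier look at these same data. The difference between old and young libraries is therefore described without a test. The other annotated relatives (Slfn10-ps, Slfn14 and Slfnl1) were not members. All 7 members were among the 18720 genes kept by the filter on low counts.

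The study sequenced 23 libraries labelled as brain microglia from female C57BL/6 mice: 7 young (Y), 3 young repopulated (Y-re), 5 old (O) and 8 old repopulated (O-re). To deplete microglia, mice ate AIN-76A chow with 1200 ppm PLX5622, an inhibitor of the CSF1R receptor that microglia need to survive, and control mice ate that chow without drug. The growth protocol in the labels describes magnetically selected CD11b+ cells kept in culture, whereas the extraction protocol names sorted microglia as the source of the RNA, and the labels do not say how the 2 relate. Repopulated libraries come from mice in which microglia were left to return. How old the mice were, how long they ate the drug and how long microglia had to return are not stated by the labels. Nor do the labels say whether a library is 1 animal or a pool, so the p-values measure only the spread between these libraries.

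Schlafen proteins share a core domain that binds nucleic acids, and several of them cut or protect transfer RNA. In the mouse the family is usually sorted by length: the short Slfn1 and Slfn2 hold the core alone, the intermediate Slfn3 and Slfn4 add a linker domain, and the long Slfn5, Slfn8 and Slfn9 add a helicase-like domain. Many are induced by type I interferon, and Slfn4 is known from cells of the monocyte lineage, where its level falls as monocytes mature into macrophages.

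Libraries held between 43.7 M and 58.2 M expected counts, with 16399 to 22208 genes counted. Library titles are numbered, and all 3 young repopulated libraries fall in the higher run (12 to 24), so results are also given within the numbers 1 to 11 and 12 to 24. Microglial markers (P2ry12, Tmem119, Sall1 and 7 more) were present in every library, with a summed level of 26110 to 31969 CPM in young, 23066 to 26800 in young repopulated, 10369 to 26582 in old and 9814 to 30013 in old repopulated libraries. CPM here are counts scaled to library size with TMM factors. The 10 monocyte markers summed to 285 to 1738 CPM in young, 735 to 1199 in young repopulated, 537 to 4921 in old and 386 to 8296 in old repopulated libraries, and none was at 0 throughout. In bulk samples, fewer cells of a type and less RNA per cell cannot be told apart.

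The 7 genes lie within 264 kb of mouse chromosome 11 (GRCm38, GENCODE M21), in the order Slfn5, Slfn9, Slfn8, Slfn2, Slfn1, Slfn4, Slfn3, with Slfn9 and Slfn8 on the minus strand. Slfn4 (ENSMUSG00000000204.16) spans chr11:83175186-83190216, and Slfn3 (chr11:83191330-83215154) is the next gene on the same strand. RefSeq sequence upstream of the annotated start (GRCm38.p6) is shown for 6 members: Slfn4 and Slfn1, whose levels ranged most widely, and the 4 members in which an interferon-type motif was found. Capitals mark the match, and each stretch reads 5′ to 3′ on the gene's own strand.
Slfn4, chr11:83174936-83175185, plus strand: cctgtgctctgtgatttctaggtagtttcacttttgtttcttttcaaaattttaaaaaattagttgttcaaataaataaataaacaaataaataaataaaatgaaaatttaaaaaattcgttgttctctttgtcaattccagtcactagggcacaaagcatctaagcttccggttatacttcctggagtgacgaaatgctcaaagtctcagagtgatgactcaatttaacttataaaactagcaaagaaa
Slfn1, chr11:83116570-83116819, plus strand: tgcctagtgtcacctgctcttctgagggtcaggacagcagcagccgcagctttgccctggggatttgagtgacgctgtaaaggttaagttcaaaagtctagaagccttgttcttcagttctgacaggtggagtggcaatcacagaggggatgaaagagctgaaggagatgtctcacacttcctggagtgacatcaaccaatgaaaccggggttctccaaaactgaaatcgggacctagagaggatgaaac
Slfn5, chr11:82951852-82951984, plus strand, ending before the first annotated exon of another Slfn5 transcript: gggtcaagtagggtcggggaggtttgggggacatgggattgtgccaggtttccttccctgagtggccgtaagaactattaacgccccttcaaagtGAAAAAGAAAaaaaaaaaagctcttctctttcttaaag
Slfn8, chr11:83020811-83021060, minus strand: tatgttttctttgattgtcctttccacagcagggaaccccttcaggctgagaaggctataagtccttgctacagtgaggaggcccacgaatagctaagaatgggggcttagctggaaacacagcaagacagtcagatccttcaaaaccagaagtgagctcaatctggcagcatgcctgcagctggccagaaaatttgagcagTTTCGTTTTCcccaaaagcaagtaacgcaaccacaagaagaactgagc
Slfn9, chr11:82991831-82992080, minus strand: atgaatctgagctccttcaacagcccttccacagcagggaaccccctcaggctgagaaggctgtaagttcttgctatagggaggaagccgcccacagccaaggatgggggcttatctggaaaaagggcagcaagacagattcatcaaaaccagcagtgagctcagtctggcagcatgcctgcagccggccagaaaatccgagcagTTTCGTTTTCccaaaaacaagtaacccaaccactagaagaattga
Slfn2, chr11:83064862-83065111, plus strand: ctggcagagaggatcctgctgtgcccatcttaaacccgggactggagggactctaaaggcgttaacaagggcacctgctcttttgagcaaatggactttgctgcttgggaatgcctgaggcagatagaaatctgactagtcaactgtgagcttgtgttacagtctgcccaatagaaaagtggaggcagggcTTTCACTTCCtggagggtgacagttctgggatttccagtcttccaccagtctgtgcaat

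Interferon-type motifs were searched on both strands in the 300 bases from 250 before to 50 after each start. The core of the interferon-stimulated response element, GAAA, then any 2 bases, then GAAA, was found in the 3 long members. It lay 155 bases before the RefSeq start in Slfn5, 48 or 136 in Slfn8, by the start used, and 45 in Slfn9. The Slfn5 window (chr11:82951852-82952151) falls inside the GENCODE span of that gene, which starts at chr11:82951349, so it is not upstream of the whole gene. This core occurs in 3.44% of all 32851 such windows. The ETS-IRF composite, GGAA, then any 2 bases, then GAAA, was found 59 bases before the start of Slfn2 and in 2.72% of windows. The STAT motif TTCNNNGAA, found in 8.30% of windows, matched in no member. These letters were not in the windows of Slfn1, Slfn3 and Slfn4.

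On the deposited TPM scale, which accounts for transcript length, Slfn2 was the most abundant member in the mean of every group. In young libraries its level was 204 ± 55.4 TPM (SD, n = 7), followed by Slfn8 at 52.2 ± 10.3 and Slfn5 at 45.2 ± 9.16, which did not differ beyond their spread. Slfn9 followed at 12.9 ± 1.17 TPM. Slfn1, Slfn4 and Slfn3 stood last at 2.22 ± 2.62, 2.11 ± 1.69 and 1.35 ± 0.55 TPM, and their order changed between young libraries. In old libraries the order of mean TPM was Slfn2 (277 ± 76.6, n = 5), Slfn5 (110 ± 78.5), Slfn4 (104 ± 123), Slfn8 (74.4 ± 18.7), Slfn1 (49.6 ± 56.8), Slfn9 (14.8 ± 2.82) and Slfn3 (4.26 ± 2.81). The SDs of Slfn5, Slfn4, Slfn8 and Slfn1 were wide in old libraries, but the genes were measured in the same libraries. Slfn5 lay above Slfn1 in each old library, at 46.5 against 5.50 TPM in replicate 1 and 243 against 142 in replicate 3. The other pairs of these 4 genes changed order between old libraries.

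Slfn4 took up 0.61% ± 0.36 (SD, n = 7) of the summed Schlafen TPM in young libraries and 12.3% ± 10.8 (n = 5) in old ones. Its share was 3.31% ± 1.21 (n = 3) in young repopulated and 6.59% ± 4.92 (n = 8) in old repopulated libraries. Summed over the 7 members, the level was 320 ± 74.2 TPM in young, 290 ± 52.1 in young repopulated, 635 ± 349 in old and 372 ± 156 in old repopulated libraries. The rise in the sum was uneven among old libraries, from 377 TPM in the lowest to 1200 in the highest.

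**Figure D1:**
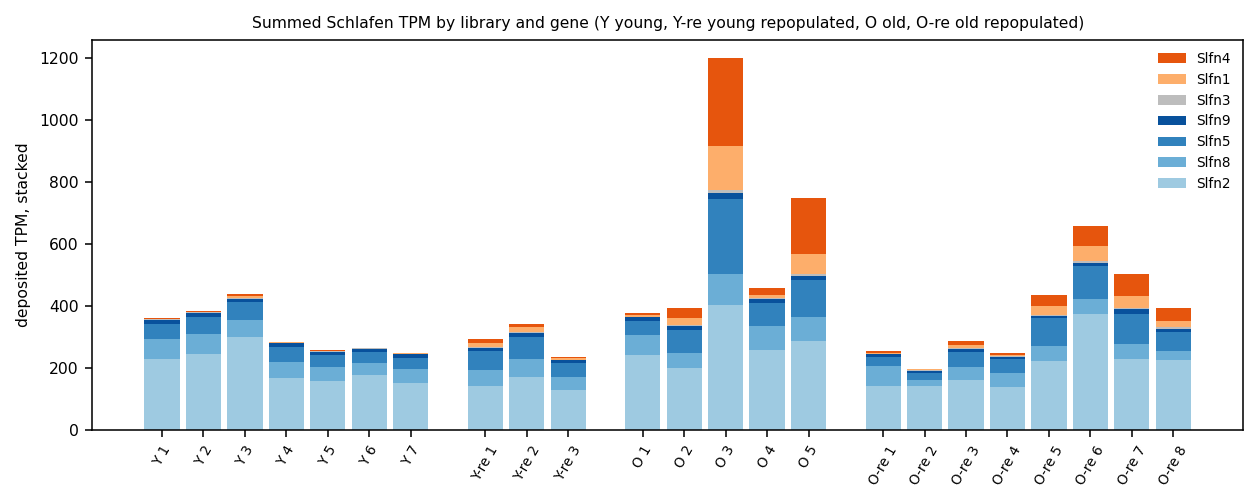
Deposited TPM of the 7 Schlafen genes stacked by library; each bar is 1 library, and groups are separated by gaps. Slfn2 forms the largest block in all bars, and Slfn4 is widest in old replicates 3 and 5.

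Slfn4 varied most: its highest library stood 564 times above its lowest. Young libraries held 1.14 to 9.29 CPM (median 3.91), and the 3 young repopulated libraries held 32.7, 23.3 and 12.4 CPM. The 5 old libraries held 11.4, 67.0, 645, 43.1 and 398 CPM. All 5 lay above the highest young library, which 1.43% of all genes tested did in this direction, and this is the contrast in which the gene was chosen. Old repopulated libraries held 3.64 to 165 CPM (median 54.8), overlapping both the old and the young libraries. Old replicates 3 and 5 were the highest libraries of all, and the lowest old library lay below the 3 young repopulated ones.

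Slfn3, the neighbour of Slfn4 and its intermediate partner, was the least abundant member. It held 0.92 to 2.28 CPM (median 1.20) in young libraries, 3.59, 2.49 and 2.41 CPM in young repopulated, 1.68, 4.74, 9.64, 1.86 and 5.21 CPM in old, and 0.61 to 6.18 CPM (median 4.12) in old repopulated libraries. Young and young repopulated libraries did not overlap, whereas old libraries 1 and 4 lay within the young range. Its lowest library rested on 30.1 expected counts.

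Among the short members, Slfn1, first described in developing thymocytes, followed the same order as Slfn4. It held 0.72 to 9.79 CPM (median 1.45) in young libraries, 12.5, 17.1 and 4.35 CPM in young repopulated, 5.71, 24.9, 154, 11.99 and 69.3 CPM in old, and 1.75 to 55.3 CPM (median 16.7) in old repopulated libraries. Its young range is wide because of young replicate 3, the only young library above 1.89 CPM.

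Slfn2, which keeps T cells quiescent, varied little. It held 143 to 323 CPM (median 164) in young libraries, 143, 170 and 127 CPM in young repopulated, 224, 189, 386, 235 and 270 CPM in old, and 138 to 389 CPM (median 186) in old repopulated libraries. Young, old and old repopulated libraries overlapped. The 3 young repopulated libraries lay below every old one, but these groups differ in both age and repopulation and were not contrasted. The share of all genes with such a separation was not counted, so nothing is read from it. The antisense gene Gm20234 overlaps Slfn2 on the other strand, and whether the counting used strand is not given in the sources used here.

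Of the long members, Slfn5, described as a regulator of interferon-driven transcription, spread most. It held 118 to 229 CPM (median 157) in young, 207, 250 and 152 CPM in young repopulated, 150, 253, 845, 234 and 408 CPM in old, and 77.2 to 405 CPM (median 193) in old repopulated libraries. Old replicate 3 stood apart from all other libraries. Slfn8 held 71.3 to 116 CPM (median 90.6) in young, 97.0, 111 and 80.0 CPM in young repopulated, 100, 88.3, 186, 133 and 135 CPM in old, and 41.4 to 100 CPM (median 80.4) in old repopulated libraries. Its neighbour Slfn9 was the steadiest member, with 40.2 to 46.5 CPM (median 41.6) in young, 37.9, 42.4 and 33.9 CPM in young repopulated, 38.5, 39.8, 63.1, 46.1 and 49.7 CPM in old, and 23.8 to 45.5 CPM (median 32.2) in old repopulated libraries. For both genes, 6 of 8 old repopulated libraries lay below the lowest old library.

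**Figure D2:**
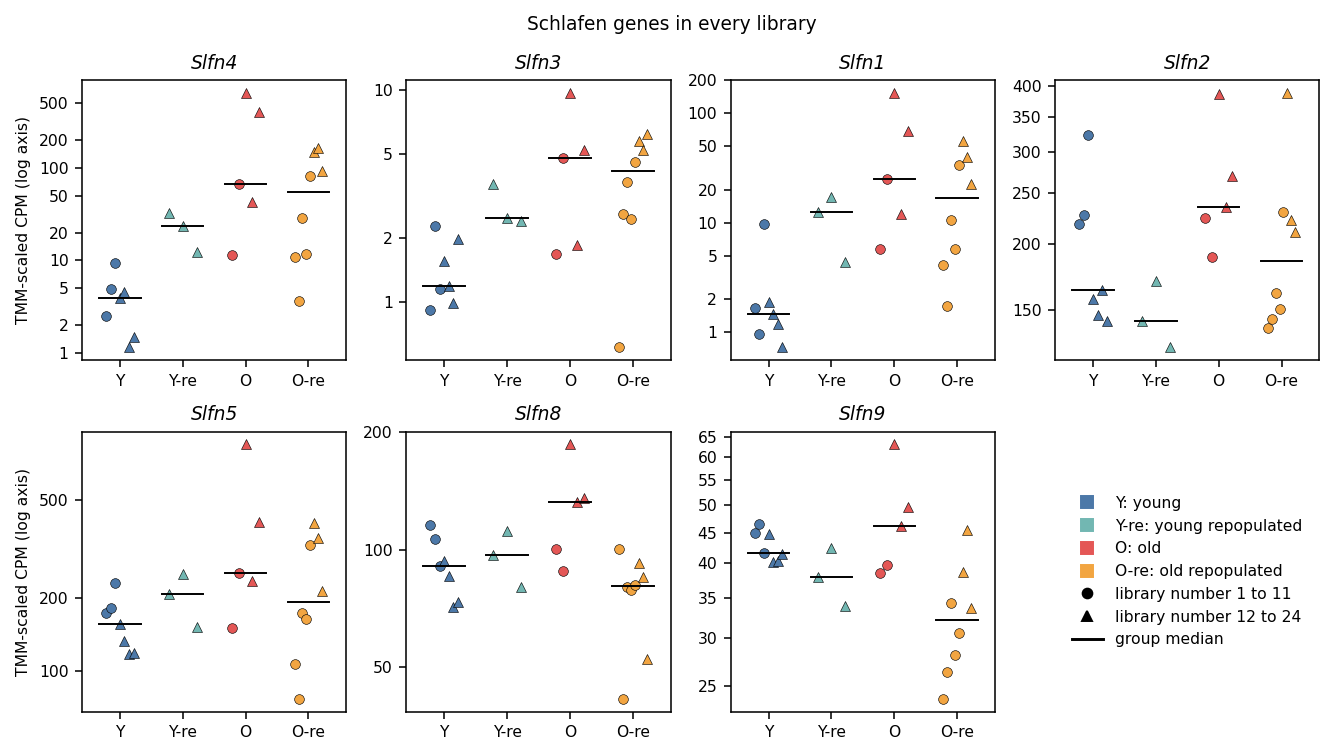
TMM-scaled CPM of each Schlafen gene on a log axis, with 1 point per library, circles for library numbers 1 to 11, triangles for 12 to 24 and a line at each group's median. Slfn4 runs from 1.14 to 645 CPM and Slfn9 from 23.8 to 63.1; old replicate 3 is the highest library in every panel but that of Slfn2.

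Reads that fit more than 1 member limit how well close relatives can be separated. Of the 50-base windows along its transcripts, the share found also in another gene was 15.6% for Slfn3, 14.6% for Slfn8, 11.5% for Slfn9, 10.8% for Slfn4, 4.27% for Slfn2, 3.37% for Slfn5 and 0.61% for Slfn1. Between members, 9.30% of Slfn8 windows occur in Slfn9 and 7.39% of Slfn3 windows in Slfn4. With Slfn3 at 2.84 TPM on average beside Slfn4 at 35.0 TPM, the Slfn3 values are the most open to such sharing. How far it moved them was not tested.

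Old against young libraries gave positive fitted differences for all 7 members, by the edgeR fit across all genes. On the log2 scale they were 5.87 ± 0.97 (SE) for Slfn4, 4.40 ± 0.88 for Slfn1, 1.68 ± 0.44 for Slfn3, 1.25 ± 0.38 for Slfn5, 0.50 ± 0.19 for Slfn8, 0.41 ± 0.24 for Slfn2 and 0.15 ± 0.14 for Slfn9 (n = 5 against 7). Over all genes tested, 2.83% were called between these groups at an adjusted p under 0.05. The contrast chose the family, so nothing is read from the members' own share. The differences rest mainly on library numbers 12 to 24: there the Slfn4 value was 7.02 and the Slfn2 value 0.97, while within 1 to 11 they were 2.81 and -0.31. Slfn5, Slfn8 and Slfn9 gave 0.05, -0.15 and -0.18 within 1 to 11 (2 old against 3 young libraries), so that 3 members, Slfn2 among them, had negative values there.

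Old repopulated against young libraries asks how far microglia that returned in old mice stand from those of undepleted young mice. This contrast shares its young libraries with the one that chose Slfn4. The Slfn4 difference and its p-values, here and by number run, therefore partly reflect that choice. Of the 7 members 4 were called, against 15.2% of all genes tested (edgeR quasi-likelihood test, Benjamini-Hochberg adjustment over 18720 genes). Slfn4, Slfn1 and Slfn3 rose, a direction in which 9.29% of all genes were called: Slfn4 by 4.08 ± 0.87 (log2, SE; adjusted p = 0.00388, n = 8 against 7), Slfn1 by 3.11 ± 0.80 (adjusted p = 0.0122) and Slfn3 by 1.43 ± 0.41 (adjusted p = 0.0210). For Slfn4, 7 of 8 old repopulated libraries lay above every young one.

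Slfn9 fell, a direction in which 5.92% of genes were called, with a log2 difference of -0.39 ± 0.12 (edgeR adjusted p = 0.0311) and 7 of 8 old repopulated libraries below the lowest young one. This call was lost without young replicate 1, 2, 4 or 5 or old repopulated replicate 1, 2 or 5, where the adjusted p lay between 0.0535 and 0.0855. It was also lost with an offset for effective length (-0.33 ± 0.13, adjusted p = 0.0818) and with limma-voom (-0.25 ± 0.10, adjusted p = 0.0644), which called Slfn5 instead (0.85 ± 0.26, adjusted p = 0.0146). The differences of Slfn5 (0.52 ± 0.34), Slfn2 (0.06 ± 0.22) and Slfn8 (-0.25 ± 0.17) did not pass the test.

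Within library numbers 12 to 24 the Slfn4 difference between old repopulated and young libraries was 5.60 ± 0.78 (edgeR adjusted p = 0.000218), and within 1 to 11 it was 2.28 ± 0.96 (adjusted p = 0.434). Slfn9 was the other way round, with -0.63 ± 0.13 (adjusted p = 0.261) within 1 to 11 and -0.08 ± 0.12 (adjusted p = 0.663) within 12 to 24. Slfn2 pointed in opposite directions, at -0.63 ± 0.19 (adjusted p = 0.367) and 0.85 ± 0.21 (adjusted p = 0.00552). No member was called within 1 to 11, where 5 old repopulated libraries met 3 young ones and 0.0107% of all genes were called. Within 12 to 24, 5 of 7 members were called, beside 41.1% of all genes. With the number run as a term in the fit, Slfn4 (3.65 ± 0.81), Slfn1, Slfn3 and Slfn9 were still called, beside 24.5% of all genes.

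Old repopulated against old libraries asks whether depletion and return changed the family in old mice. This contrast shares its old libraries with the one that chose Slfn4, so a negative Slfn4 value and its p-value partly reflect that choice. All 7 fitted differences were negative and none was called, against 0.278% of all genes tested (edgeR). At an unadjusted p under 0.05 the count was 3 of 7, where 10.4% of all genes stood. The differences were -1.79 ± 0.80 (log2, SE) for Slfn4 (adjusted p = 0.417), -1.29 ± 0.77 for Slfn1, -0.75 ± 0.19 for Slfn8 (adjusted p = 0.0864), -0.73 ± 0.37 for Slfn5, -0.54 ± 0.13 for Slfn9 (adjusted p = 0.0790), -0.34 ± 0.24 for Slfn2 and -0.26 ± 0.43 for Slfn3, with n = 8 against 5. Slfn8 and Slfn9 thus had the smallest errors and the lowest p-values although Slfn4 had the largest fold.

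Old replicate 3 carried much of these differences. Without it Slfn4 was -0.95, Slfn1 -0.36, Slfn5 -0.20, Slfn2 -0.16 and Slfn3 0.20, while Slfn8 was -0.58 and Slfn9 -0.41. DESeq2 called 2 members here, Slfn8 (-0.76 ± 0.20, adjusted p = 0.0152) and Slfn9 (-0.55 ± 0.14, adjusted p = 0.0124), beside 1.67% of all genes. Limma-voom with quality weights called Slfn8 alone (adjusted p = 0.0406), beside 2.21%. Slfn8 also passed the edgeR test without old replicate 2 (adjusted p = 0.0411) or old repopulated replicate 1 (adjusted p = 0.0475), and Slfn9 without old repopulated replicate 7 (adjusted p = 0.0419). Within library numbers 12 to 24 Slfn8 was -0.98 ± 0.21 (adjusted p = 0.0121), and within 1 to 11 it was -0.30 ± 0.25 (adjusted p = 1). The higher run called 2 members, beside 12.7% of all genes.

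Young repopulated against young libraries gave no called member, against 1.34% of all genes tested (edgeR). Its young libraries are also those of the contrast that chose Slfn4, so a positive Slfn4 value and its p-values partly reflect that choice. Slfn4 was 2.52 ± 0.95 higher on the log2 scale (adjusted p = 0.201, n = 3 against 7), Slfn1 2.17 ± 0.92 (adjusted p = 0.263) and Slfn3 0.97 ± 0.51 (adjusted p = 0.377). The other 4 lay between -0.43 (Slfn2) and 0.36 (Slfn5). Slfn4 and Slfn3 were the 2 members whose groups did not overlap, where 5.97% of all genes had every young repopulated library above every young one. At an unadjusted p under 0.05 the count was 2 of 7, beside 15.1% of all genes. DESeq2 and limma-voom called 0, beside 4.46% and 13.8% of all genes. Fitted on these groups only, Slfn4 passed (2.53 ± 0.50, adjusted p = 0.0107), and so did Slfn4 (3.06 ± 0.72, adjusted p = 0.0214) and Slfn1 (3.14 ± 0.72, adjusted p = 0.0188) within library numbers 12 to 24. Of all genes, 7.5% and 9.3% were called in these 2 settings.

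Old repopulated and young repopulated libraries were then set side by side, with no called gene of 18720 (0%, edgeR) and therefore no called member. Slfn4 differed by 1.56 ± 1.07 (log2, SE; adjusted p = 0.545, n = 8 against 3), and its 8 old repopulated libraries lay on both sides of the young repopulated range. No member had an unadjusted p under 0.05, where 11.7% of all genes did. Limma-voom called 1 of 7 members, Slfn2 (0.61 ± 0.19, adjusted p = 0.0329), beside 17% of all genes. DESeq2 called 0, beside 0.491%. Within library numbers 12 to 24, Slfn4 (2.54 ± 0.75, adjusted p = 0.0193) and Slfn2 (0.88 ± 0.22, adjusted p = 0.00945) were called, 2 of 7 members beside 36.3% of all genes.

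The difference between the repopulation effects in old and in young mice, the interaction term, was called for no gene (0%, edgeR). This term subtracts the old against young difference that chose Slfn4. Negative Slfn4 values and their p-values, here and within 12 to 24, therefore partly reflect that choice. It was -4.31 ± 1.24 for Slfn4 (unadjusted p = 0.00216, adjusted p = 0.401), -3.46 ± 1.21 for Slfn1 and -0.83 ± 0.30 for Slfn8, the 3 members under an unadjusted 0.05, as were 8.24% of all genes. DESeq2 and limma-voom called 0 members, beside 0.246% and 0.807% of all genes. Within library numbers 12 to 24 it was called for Slfn4 (-4.48 ± 1.03, adjusted p = 0.0223), Slfn1 (-4.12 ± 0.999, adjusted p = 0.0278) and Slfn8 (-1.26 ± 0.28, adjusted p = 0.0205), on 3 to 4 libraries a group, beside 8.87% of all genes.

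**Figure D3:**
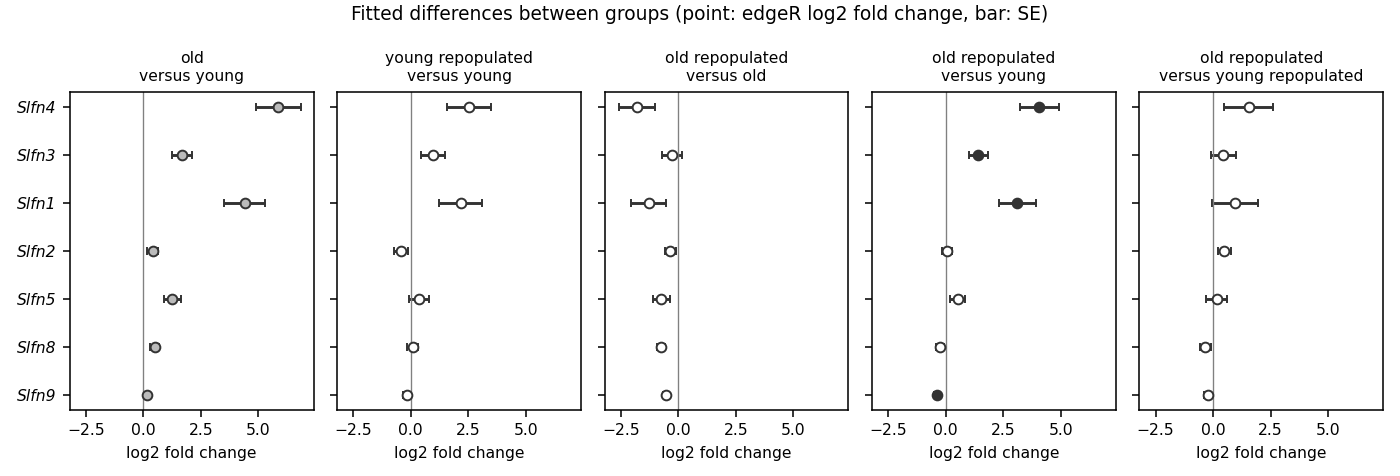
Fitted log2 fold change of each Schlafen gene in 5 contrasts, with bars of 1 SE; black points passed an adjusted p under 0.05, open points did not, and grey points (old versus young) carry no test. Slfn4, Slfn3 and Slfn1 are to the right in old repopulated versus young libraries, and Slfn9 is slightly to the left.

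Position in the cluster and size of the difference went side by side. The 3 members at the distal end, Slfn1, Slfn4 and Slfn3, had the largest differences from young libraries in all 3 other groups, whereas Slfn9, Slfn8 and Slfn2, between Slfn5 and Slfn1, stayed within 0.50 on the log2 scale. Slfn5 at the proximal end was intermediate in old libraries. With 7 genes this is a description only.

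**Figure D4:**
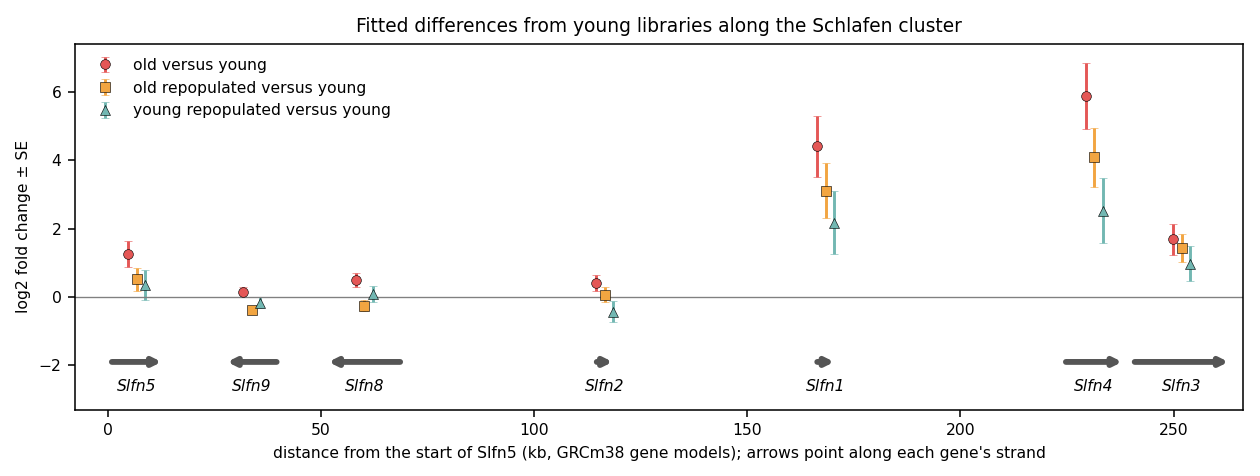
Log2 fold change from young libraries with bars of 1 SE for old, old repopulated and young repopulated libraries, drawn at each gene's place along the cluster; the x axis is distance in kb from the start of Slfn5, and arrows show gene spans and strands. The highest points belong to Slfn4 (5.87) and Slfn1 (4.40), near the distal end.

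Across the 23 libraries Slfn1, Slfn5 and Slfn3 were most like Slfn4 among the members. On log2 CPM, Pearson's r with Slfn4 was 0.97 for Slfn1 (Spearman's rho 0.95), 0.87 for Slfn5 (0.85) and 0.82 for Slfn3 (0.83), each with a permutation p of 2e-05 by either measure, the smallest that 100000 permutations can give (4e-05 after adjustment over 6 relations). The permutations moved libraries freely across the groups, and the family was chosen by its Slfn4 values. These p-values, and those of the other members below, are therefore a description and do not test a relation within groups. The 3 r values stayed at 0.96, 0.81 and 0.76 without old replicates 3 and 5, the libraries farthest from the median of Slfn4. Within the numbers 1 to 11 (n = 10) they were 0.93, 0.65 and 0.65, and within 12 to 24 (n = 13) 0.98, 0.93 and 0.91.

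Slfn2 correlated at 0.60 (rho 0.51; permutation p = 0.00302 and 0.0155, adjusted 0.00453 and 0.0232), but at 0.02 within the numbers 1 to 11 and 0.79 within 12 to 24. The relation of Slfn2 to Slfn4 therefore did not hold in the lower run. Slfn8 (r = 0.41, rho 0.29; permutation p = 0.0528 and 0.186, adjusted 0.0633 and 0.224) and Slfn9 (r = 0.28, rho 0.13; permutation p = 0.194 and 0.553, adjusted 0.194 and 0.553) did not pass. Without the 2 farthest libraries they were 0.09 and -0.06. With each group's mean removed, however, r with Slfn4 was 0.79 for Slfn9, 0.73 for Slfn2 and 0.52 for Slfn8, beside 0.93 for Slfn1, 0.93 for Slfn5 and 0.71 for Slfn3. Slfn9 was thus loosely tied to Slfn4 over all libraries, and more closely once the group means were removed. That centred value pools all groups and was not recomputed by number run or without old replicates 3 and 5. Without centring, r with Slfn4 within 1 to 11 was -0.15 for Slfn9 and 0.02 for Slfn8. Within 12 to 24 these were 0.44 and 0.53. Libraries of a group share their condition, and Slfn3 and Slfn4 share some reads, so the pooled values mix differences between groups with those within them.

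**Figure D5:**
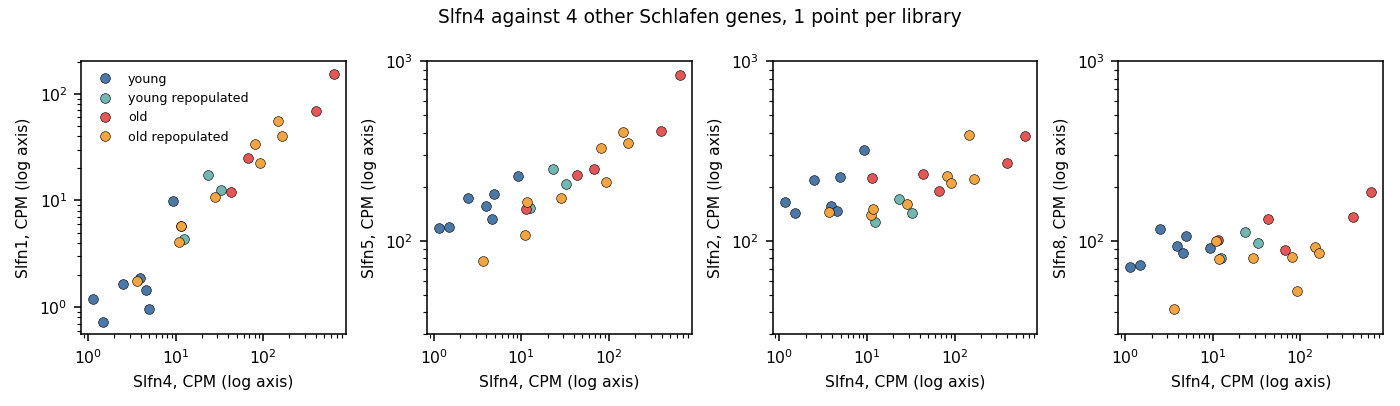
CPM of Slfn1, Slfn5, Slfn2 and Slfn8 against CPM of Slfn4, both on log axes, with 1 point per library coloured by group. Slfn1 follows Slfn4 closely (pooled r = 0.97), and Slfn8 is looser (pooled r = 0.41).

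Likeness was also measured against 9616 other genes with a mean of at least 5 CPM, as Pearson's r of log2 CPM over the 23 libraries and as a description only. The 5 genes most like Slfn4 were Nr1h3 (r = 0.96), the sterol-sensing nuclear receptor LXR alpha, Ly6c2 (0.96), a surface antigen of inflammatory monocytes, Itgb7 (0.95), an integrin chain, Pirb (0.95), an inhibitory immunoglobulin-like receptor, and H2-Ab1 (0.95), a chain of MHC class II. For Slfn1 they were Ly6c2 (0.98), Thbs1 (0.96) and Plbd1 (0.95), and for Slfn3 Slc28a2, Aifm2 and Anxa4 (all 0.93). Slfn2 was most like the adhesion protein Zyx (0.91), the survival factor Mcl1 (0.90) and Nmi (0.89). Of the long members, Slfn5 was closest to Fgl2, Ifitm3 and Ifi204 (0.96, 0.96 and 0.95). Slfn8 was closest to Phf11d, Adar and Ddx58, the RNA sensor RIG-I (0.95, 0.95 and 0.94), and Slfn9 was closest to the RNA-activated kinase Eif2ak2, Parp14 and Ube2l6 (0.87, 0.87 and 0.85).

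A list of 28 interferon-induced effectors was set against 3 members. The median r over its genes was 0.85 for Slfn8, 0.80 for Slfn5 and 0.58 for Slfn4. Between old and young libraries all 28 had positive differences (median 0.80 on the log2 scale; -0.01 over all genes) and 3 were called higher, Oas3, Ifitm3 and Cmpk2, where 2.6% of all genes were. Between old repopulated and old libraries all 28 were negative (median -1.03; 0.00 over all genes) and 5 were called lower, against 0.214% of genes: Ifit2 (-1.46 ± 0.29, edgeR adjusted p = 0.0327), Ifit3, Xaf1, Ddx58 and Herc6. These contrasts share the old libraries, so the signs are not independent. The 28 genes summed to 2133 and 2254 CPM in old replicates 1 and 2, within the young range of 1489 to 2510. In old replicates 3, 4 and 5, all of the higher number run, the sums were 5587, 2826 and 4277 CPM. Old repopulated libraries held 799 to 2707 CPM. How far the list's differences rest on the higher run was not tested.

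Upstream of the effectors, none of the 4 interferon receptor genes was called in any contrast. Of 10 signalling genes, Stat2, a part of the interferon-activated transcription complex, fell between old repopulated and old libraries (-1.06 ± 0.18, edgeR adjusted p = 0.0165), and it was also called lower than in young libraries (-0.51 ± 0.17, adjusted p = 0.0477). None of the 3 brakes, Usp18, Socs1 and Socs3, was called. Of the 4 interferon ligand genes listed, 1 passed the filter on low counts, and it was not called.

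The monocyte marker Ly6c2 was high in the libraries where Slfn4 and Slfn1 were high. It held 0.24 to 7.76 CPM in young libraries (median 0.90), 23.7, 26.2 and 7.62 CPM in young repopulated, 7.56, 86.8, 378, 15.9 and 208 CPM in old, and 2.97 to 86.4 CPM (median 30.3) in old repopulated libraries. Old replicates 3 and 5 were the highest in Ly6c2 as in Slfn4. Of the 10 monocyte markers, 7 were called higher in old repopulated than in young libraries (median difference 3.67), where 9.29% of all genes were, and 5 in old than in young ones, where 2.6% were. None was called between young repopulated and young libraries. Ly6c1 ran the other way, with group means of 2.20 CPM in young, 1.01 in young repopulated, 1.14 in old and 1.05 in old repopulated libraries. In old repopulated against young libraries, 5 of 9 neutrophil, 4 of 6 border-associated macrophage (median 1.66) and 3 of 6 dendritic cell markers (median 2.20) were called higher as well. Of these lists, Cd163 (mean 13.4 CPM in young, 8.04 in old repopulated) and Xcr1 (0.88 and 0.35 CPM) ran the other way. All 10 microglial markers were lower in that contrast (median -0.77), and 4 were called, where 5.92% of all genes were called lower.

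The microglial factor Sall1 ran opposite to Ly6c2. It held 121 CPM in old replicate 3 and 36.8 to 505 CPM in old repopulated libraries, against 310 to 490 CPM in young ones. Old repopulated replicates 6, 7 and 8, with 147, 165 and 91.8 CPM of Slfn4, held monocyte sums of 8296, 4397 and 8086 CPM and microglial sums of 10608, 14526 and 9814 CPM. The order was not the same throughout. Old repopulated replicate 2 had the lowest Slfn4 of its group (3.64 CPM) with 105 CPM of Sall1, and old replicate 3 had more Slfn4 (645 CPM) at a lower monocyte sum (4921 CPM). Of these sums, Fn1 alone averaged 2345 ± 2073 CPM in old repopulated libraries (n = 8, highest 6166), 1207 ± 758 in old (n = 5), 636 ± 194 in young repopulated (n = 3) and 899 ± 407 in young ones (n = 7), so the young libraries were not free of this marker. T and NK lymphocyte markers summed to 0.31 to 4.80 CPM over all libraries. The part of other myeloid cells in the Slfn4 and Slfn1 values was not tested.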

How the data were processed

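Expected counts and TPM per gene were deposited by the authors for each library. Reads of 50 nt from stranded poly(A) libraries (2.4 to 147 ng of RNA, per the labels' protocols) were processed with FastQC 0.11.5, STAR, RSEM and limma on GRCm38, per the submitters' processing notes. RSEM splits reads that fit several genes, so similar Schlafen genes have estimated counts. The expected counts were rounded and fitted with edgeR 4.0.16 (R 4.3.3): filterByExpr, TMM scaling, 1 coefficient per group over all 23 libraries, quasi-likelihood tests, Benjamini-Hochberg adjustment over 18720 genes, called at an adjusted p under 0.05. Correlations used log2 CPM with a prior count of 2. Gene positions and 50-base windows came from GENCODE M21, in which all 7 member IDs have the same version, and promoters from RefSeq, where all 7 matched.

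The members, gene lists and tests were chosen with earlier results of these data known. Text names all 7 members, the genes most like each (5 for Slfn4, 3 for the others, leaving out predicted genes and pseudogenes) and genes of the lists. Alternatives were other scalings and filters, DESeq2 1.42.0, limma-voom 3.58.1, length offsets, the number run as a term or split, fewer groups, summed members and each library left out. The test was also run on simulated counts. These held no difference between number runs and no outlying library, so that run does not bear on either. Depth was 43.7 M to 58.2 M expected counts a library.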

Additional observations from a re-analysis of the deposited data

Results flagged for a closer look

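Of 21 groups checked, 2 held a value far from the rest of the group by gap over range; chance gives about 1 in 20. Slfn1 was 9.79 CPM in young replicate 3, where the next young library had 1.89 CPM. The same library had 7.76 CPM of Ly6c2 and 45.8 CPM of Ccr2, both the highest among young libraries, and its Slfn4 value of 9.29 CPM was the young maximum as well. Slfn2 was 389 CPM in old repopulated replicate 6, where the next library of that group had 230 CPM. That library also held the highest monocyte marker sum (8296 CPM). The part of either in these values was not tested.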

How the results depend on the processing

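No paired analysis was possible because the library titles carry unique numbers and the groups share none. Direction held for all 7 members between old and young libraries except within library numbers 1 to 11 (Slfn2, Slfn8 and Slfn9), and Slfn4, Slfn1 and Slfn3 kept theirs between old repopulated and young libraries in all alternatives run. The number of Schlafen members called depended on the setting. At a mean CPM of at least 5, Slfn3 (3.16 CPM on average) was filtered out, so it could not be called there. For old repopulated versus old (0) it was 1 at a mean CPM of at least 5 (0.511% of all genes called), 2 with DESeq2 (1.67%), 1 with limma-voom (2.21%), 2 within library numbers 12 to 24 (12.7%) and 0 to 1 when each library was left out. For young repopulated versus young (0) it was 1 on the compared groups only (7.5%) and 2 within 12 to 24 (9.3%). For old repopulated versus young (4) it was 0 within 1 to 11 (0.0107%) and 5 within 12 to 24 (41.1%). It was 3 at a mean CPM of at least 5 (24.4%) and with the length offset (13.5%). With each library left out it was 3 to 4. Limma-voom also gave 4 (35.5%), with Slfn5 in place of Slfn9. For old repopulated versus young repopulated (0) it was 1 with limma-voom (17%) and 2 within 12 to 24 (36.3%), and for the interaction (0) it was 3 within 12 to 24 (8.87%). The causes were not tested.

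Some small differences turned sign. Slfn2 in old repopulated versus young was -0.015 with upper-quartile factors, -0.63 within 1 to 11 and -0.13 to 0.23 when each library was left out. Its interaction was -0.013 with limma-voom, -0.090 within 12 to 24 and -0.11 to 0.27 when each library was left out. Slfn3 in old repopulated versus old was 0.11 with limma-voom, 0.041 within 12 to 24 and -0.47 to 0.20 when each library was left out. Slfn5 was -0.19 in old repopulated versus young within 1 to 11, and -0.0098 to 0.32 against young repopulated when each library was left out. Slfn8 in young repopulated versus young was -0.0010 to 0.19 when each library was left out, and Slfn9 was 0.023 in old repopulated versus young repopulated within 12 to 24. All members summed to 1 gene gave 0.067 in young repopulated versus young (against Slfn2 and Slfn9), 0.35 and 0.29 in old repopulated versus young and versus young repopulated (against Slfn8 and Slfn9) and -0.87 in the interaction (against Slfn2). Slfn8 and Slfn9 summed, chosen after seeing the data, gave 0.0042 in young repopulated versus young (against Slfn9). Slfn3 and Slfn4 summed, also chosen afterwards, turned no sign.

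Not run were a sum of members sharing over 10% of windows, since no pair of members did, the interaction on the compared groups only, and contrasts with young repopulated libraries within 1 to 11, which hold none. Depth does not limit Slfn2, Slfn5, Slfn8 and Slfn9, which held at least 1166 expected counts (Slfn9) in every library. Slfn3 rested on 30.1 in its lowest library. Slfn1 and Slfn4 rested on 33 and 51.6 in theirs, both of them young libraries.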

Other observations

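Among Schlafen genes outside the 7 members, the transcribed pseudogene Slfn10-ps lay between Slfn8 and Slfn2 and held 3.69 ± 1.08 CPM (SD, n = 7) in young, 5.15 ± 1.68 (n = 3) in young repopulated, 10.5 ± 8.25 (n = 5) in old and 8.21 ± 4.82 (n = 8) in old repopulated libraries. It was not called in any contrast by edgeR; its lowest adjusted p was 0.0732, for old repopulated versus young. Of its 50-base windows, 13.5% occur in Slfn9 and 11.8% in Slfn8. Slfn14, which is known from platelets and red cell precursors, was at 0 in 21 of 23 libraries and held at most 6 counts, and Slfnl1 was at 0 in 14 and held at most 6 counts.

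The mean Slfn4 transcript length that RSEM assigned ranged from 2625 to 3958 bases. Its lowest values were in young replicates 3 (2625 bases) and 2 (2863 bases), which held 412 and 242 expected counts. In old replicates 3 and 5, with 29171 and 17781 expected counts, it was 3862 and 3844 bases.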
